A study of Mus musculus with 13 samples.

Results

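The genes described here are 7 genes of Schwann cells and their neural crest ancestors, measured in primary MEFs (fibroblasts grown from mouse embryos) and in lines that immortalized without any transforming gene: Sox10, Foxd3, Erbb3, S100b, Cdh19, Ngfr and Cdh6. They were chosen by name, and each symbol matched 1 of the 55487 genes counted in both tables of raw counts. The 13 poly-A RNA-seq libraries came from 3 primary WT cultures (3, 4 and 5), the 3 WT lines that grew from them, 3 primary Prkd3-/- cultures (13, 14 and 15) and 4 Prkd3-/- lines (13, 13a, 14 and 15). No agent was added: primary cells were passaged to senescence, serum was then raised, and colonies that grew out became the immortalized lines, so a line may descend from few cells. Each genotype was deposited as its own table, so genotype and table cannot be told apart. The name of line 13a ties it to culture 13 only by its number.

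The neural crest is an embryonic population that leaves the neural tube and gives rise to peripheral neurons, glia, melanocytes and part of the facial mesenchyme. Schwann cells are the glia of peripheral nerves. Sox10 and Foxd3 are transcription factors of the crest, Erbb3 is the receptor by which Schwann cell precursors read neuregulin, and Ngfr is the low-affinity neurotrophin receptor. S100b is a calcium-binding protein of glia, and Cdh19 and Cdh6 are type II cadherins, cell adhesion molecules.

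Values are CPM, read counts scaled to a common library size by TMM, given as mean ± SD with n = 3 per group, or n = 4 for the Prkd3-/- lines. Libraries held 35273408 to 100441756 counts, and 3 counts, the floor used below, were worth 0.0277 to 0.0842 CPM. Intervals and floors cover counting error only, since read copies from PCR are not independent molecules. Per the paper the WT cultures came from 3 different embryos, and for Prkd3-/- only clone numbers are given. In both genotypes the p-values measure a spread that may be technical. Fibroblast markers summed to between 30899 and 94950 CPM in every library. Each primary WT library held counts of both Xist and the Y-linked Ddx3y, so the counts do not show that each culture came from a single embryo. Prkd3 was at 33.6 to 61.0 CPM in libraries labelled Prkd3-/- and at 69.2 to 93.7 CPM in WT, and counts per gene cannot show which exons were removed. Between pairs of libraries, variation beyond counting was at most 3.26% in primary WT cultures and 18.2% to 23.4% in WT lines. It was 8.05% between Prkd3-/- primary 13 and 15, but 18.8% and 20.9% between either and primary 14, and 24.4% to 47.9% among Prkd3-/- lines.

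The crest factors were near the limit of detection even in primary cells. Sox10 (chromosome 15, GRCm38 79154908 to 79165240) was at 0.245, 0.435 and 0.0536 CPM in WT primary 3, 4 and 5, or 16, 40 and 3 counts. In the WT lines it had 1, 0 and 1 counts, so every line lay below every primary culture, although primary 5 was itself at the floor. Over the group, WT primary cells had 28.4 times the Sox10 counts of the lines per count sequenced, with an exact counting interval of 7.52 to 240.0. In Prkd3-/- primary cells Sox10 had 4, 75 and 1 counts in cultures 13, 14 and 15, and 0 in all 4 lines. Against a floor of 3 counts over the lines, Sox10 was at least 30.9-fold lower, and at least 3.55-fold lower without primary 14, which held 75 of the 80 counts. These bounds take the primary counts as exact, and the lower limits with their counting error were 24.6 and 1.95.

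Foxd3, a forkhead repressor needed to keep crest progenitors, followed the libraries where Sox10 was high. It had 4, 10 and 0 counts in WT primary 3, 4 and 5, 3, 35 and 0 in Prkd3-/- primary 13, 14 and 15, and 0 in all 7 lines. The groups overlapped in both genotypes, because primary 5 and primary 15 were also at 0. Against 3 counts over the lines, Foxd3 was at least 4.49-fold lower in WT lines and at least 14.7-fold lower in Prkd3-/- lines, with lower counting limits of 3.19 and 11.4. Without Prkd3-/- primary 14 only 3 counts remained, at the floor, so no fold is given. Foxd3 shares 89 exon bases, 3.83% of its exons, with the small gene Gm23366 on the same strand, and read pairs there count for both in the WT table.

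Of the receptors, Erbb3 showed the least spread. It was at 0.567, 0.599 and 0.661 CPM in WT primary 3, 4 and 5, and at 0.145, 0.254 and 0.320 in the lines 3, 4 and 5. In Prkd3-/- cells it was at 0.496, 0.758 and 0.365 CPM in primary 13, 14 and 15, and at 0.191, 0.206, 0.0782 and 0.108 in lines 13, 13a, 14 and 15. Every line lay below every primary culture of its genotype. The log2 fold change was −1.34 (SE 0.35) in WT and −1.90 (SE 0.50) in Prkd3-/-, with edgeR adjusted p = 0.105 and 0.525, so neither passed.

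Ngfr was at 1.32, 1.13 and 0.661 CPM in WT primary 3, 4 and 5. The lines 3, 4 and 5 were at 0, 0.0339 and 0.229 CPM, all below the primary cultures (log2 fold change −3.51, SE 1.04, edgeR adjusted p = 0.142). In Prkd3-/- primary 13, 14 and 15 it was at 0.207, 2.04 and 0.281 CPM, and in lines 13, 13a, 14 and 15 at 0, 0.151, 0.719 and 0.0405 CPM. Here the groups overlapped, since line 14 lay above primary 13 and 15. The log2 fold change was −1.90 (SE 1.39, edgeR adjusted p = 0.845). It was −0.08 without primary 14 and −3.66 without line 14.

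The cadherins differed between lines of 1 genotype. Cdh19 had 21, 11 and 10 counts in WT primary 3, 4 and 5 and 0 in all 3 lines, at least 13.5-fold lower against 3 counts over the lines (lower counting limit 10.5). In Prkd3-/- primary 13, 14 and 15 it had 2, 69 and 4 counts, while lines 13, 13a, 14 and 15 had 0, 1, 7 and 20. Line 15 thus held more Cdh19 counts than primary 13 and 15 together. The summed primary-to-line ratio was 3.11 (counting interval 1.99 to 4.98) with primary 14 and 0.456 (0.154 to 1.12) without it.

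Cdh6 was the member with the most counts. It was at 8.92, 9.13 and 14.7 CPM in WT primary 3, 4 and 5, and at 3.35, 0.0339 and 1.31 CPM in the lines, all below (log2 fold change −2.80, SE 1.19, edgeR adjusted p = 0.271). Line 4 had 2 counts. In Prkd3-/- primary 13, 14 and 15 Cdh6 was at 5.59, 3.07 and 5.53 CPM. Lines 13, 13a, 14 and 15 were at 0, 6.56, 3.86 and 0.0809 CPM, so that lines 13 and 13a, which share a number, were the lowest and the highest (log2 fold change −0.84, SE 1.56, edgeR adjusted p = 0.931).

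S100b behaved unlike the other members. It was at 1.98, 1.85 and 2.88 CPM in WT primary 3, 4 and 5, and at 0.0322, 2.18 and 0.0915 CPM in the lines, where line 4 lay within the primary range (log2 fold change −1.54, SE 1.35, edgeR adjusted p = 0.585). Without line 4 the log2 fold change was −5.12. In Prkd3-/- primary 13, 14 and 15 it was at 0.634, 0.0925 and 0.168 CPM, and in lines 13, 13a, 14 and 15 at 0.134, 0.329, 11.4 and 0.216 CPM. Line 14 alone stood above all other libraries. The log2 fold change of 3.33 (SE 1.82, edgeR adjusted p = 0.819) became −0.41 without it.

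**Figure D1:**
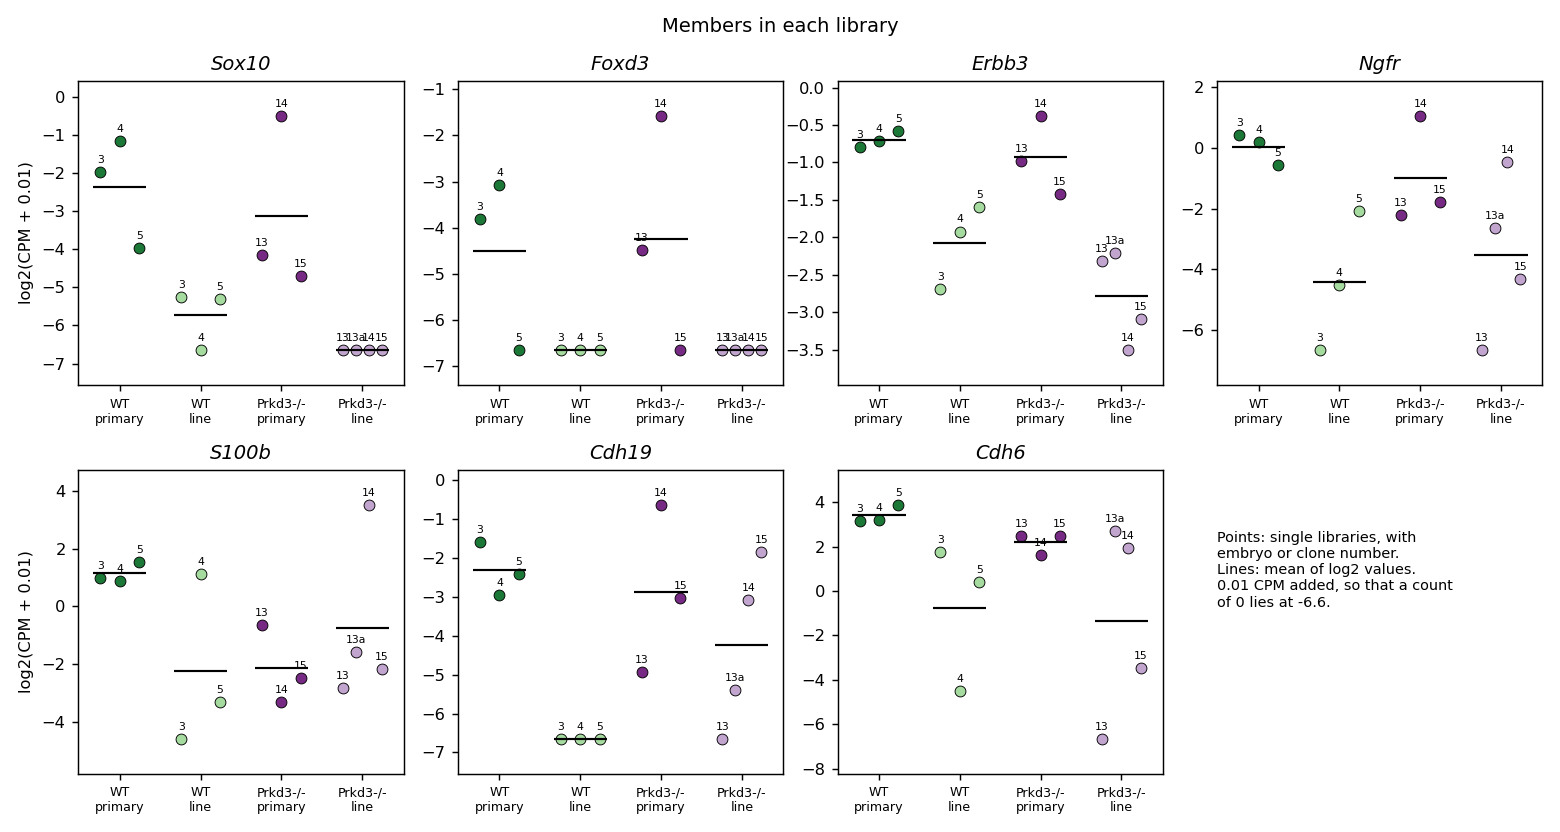
Each panel plots 1 gene as log2(CPM + 0.01), with a point per library labelled by embryo or clone number and a line at the mean of the log2 values in each group. Erbb3 is lower in every line than in every primary culture of its genotype, while S100b in Prkd3-/- line 14, at 11.4 CPM, stands above every other library.

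In edgeR's test none of the 7 members was called lower or higher in WT lines (adjusted p under 0.01 and a log2 fold change of at least 1 in size), where 1.76% of 19836 tested genes were called lower and 0.0605% higher. Erbb3 and Ngfr had an unadjusted p under 0.05, as did 19.7% of tested genes (3905), and DESeq2 called 2 members, Ngfr and Cdh19, lower (adjusted p = 0.00611 and 0.000646), with 3.67% of 33613 genes (1233). Only Erbb3, Ngfr, S100b and Cdh6 passed the filter on low counts. The background itself depends on the fit: with the embryo as a block, 0 genes were called lower in WT in place of 349. In Prkd3-/- lines edgeR called no member and 0.0% of 20298 genes in either direction, with 1 member and 6.56% of genes (1331) at an unadjusted p under 0.05. DESeq2 called 0 members there and 0.469% of 34743 genes lower. It gave no adjusted p to Sox10 in Prkd3-/- or to Foxd3 in WT, so it could not call them. Every line lay below every primary culture in 5 of 7 members in WT, against 17.4% of tested genes, and in 2 of 7 in Prkd3-/-, against 5.26%. These shares are over genes that passed the filter, which Sox10 and Cdh19 of the 5 in WT, and Sox10 of the 2 in Prkd3-/- (with Erbb3), did not.

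The test of the difference between genotypes covered 6 members, all but Foxd3, and called none, as for 0.0% of 21197 genes (edgeR adjusted p under 0.05). No member had an unadjusted p under 0.05 in edgeR, the smallest being 0.0738 for S100b, beside 3.97% of genes (841). DESeq2 called 0 members and 0.103% of 36775 genes. It gave S100b and Foxd3 no adjusted p, so it could not call them. The difference, Prkd3-/- minus WT on the log2 scale, was 4.85 (SE 2.46) for S100b, 1.95 (SE 2.16) for Cdh6, 1.62 (SE 1.94) for Ngfr and −0.56 (SE 0.62) for Erbb3. No size is given for Sox10 and Cdh19, whose fitted differences depend on the prior count because a group of lines is at 0 (unadjusted p = 0.268 and 0.0786). The S100b difference was 1.14 without Prkd3-/- line 14 and 8.45 without WT line 4. These errors leave differences of several-fold undetectable. In primary cells 2 of 7 members, S100b and Cdh6, lay lower in every Prkd3-/- than in every WT culture, as did 18.4% of 21197 genes: S100b averaged 2.24 ± 0.560 CPM in WT and 0.298 ± 0.293 in Prkd3-/-, and Cdh6 10.9 ± 3.27 and 4.73 ± 1.44. Those differences were not tested, and the table cannot be told apart from the genotype.

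**Figure D2:**
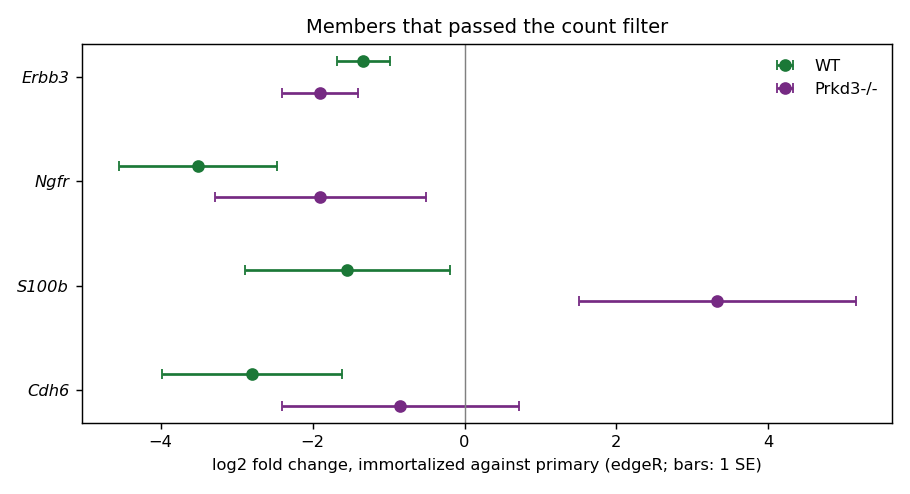
The points give the log2 fold change of immortalized against primary cells from edgeR for the 4 members that passed the count filter, by genotype, with bars of 1 SE. S100b lies at −1.54 in WT and 3.33 in Prkd3-/-, with bars wider than 1 log2 unit on each side.

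Levels per length (CPM per kilobase of exon) put the members in order. In WT primary cells S100b (1.51 ± 0.377) and Cdh6 (1.21 ± 0.363) were highest and within each other's spread, followed by Ngfr (0.301 ± 0.0983) and Erbb3 (0.101 ± 0.00796). Sox10 (0.0802 ± 0.0626), Cdh19 (0.0483 ± 0.0243) and Foxd3 (0.0244 ± 0.0235) came last and overlapped, and Sox10 also overlapped Erbb3. In bulk RNA, fewer cells of a type and less RNA per cell cannot be told apart.

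In WT, macrophage, endothelial and epithelial markers also summed lower in every line than in every primary culture. The 8 macrophage markers summed to 1318 to 1353 CPM in WT primary cells and 53.9 to 129.3 CPM in the lines. Of the 8, 6 were called lower, beside 1.76% of all tested genes. Lyz2, macrophage lysozyme, had a log2 fold change of −4.21 (SE 0.33, edgeR adjusted p = 0.00285), Csf1r, the receptor that macrophages need to survive, −3.60 (SE 0.23), and the complement genes C1qa and C1qb −4.14 (SE 0.11) and −4.11 (SE 0.26). Prkd3-/- primary 14, with the most Sox10, Foxd3, Erbb3, Cdh19 and Ngfr of its group but the least S100b and Cdh6, had 1839 CPM of macrophage markers, against 149 and 363 CPM in primary 13 and 15. Its endothelial and epithelial sums, 15.2 and 1.16 CPM, were the lowest of its group. In Prkd3-/- the epithelial sum averaged 1.81 CPM in primary cells and 1.82 CPM in lines. The endothelial markers summed to 11.6 to 16.4 CPM in WT primary cells and 0.371 to 1.97 in lines. Of the 6, 4 were tested and 1 called, Tek, an angiopoietin receptor (log2 fold change −4.78, SE 0.41, edgeR adjusted p = 0.00317). Kdr, a VEGF receptor, was at −3.35 (SE 0.95). Of 6 epithelial markers 2 were tested by edgeR and 0 called, while DESeq2 called 2 lower, beside 3.67% of all genes. Krt18, a simple-epithelium keratin, was at −4.14 (SE 0.60, edgeR adjusted p = 0.0177). Cdh1, E-cadherin, was at −2.43 (SE 0.49, edgeR adjusted p = 0.0495). Of 10 fibroblast markers 0 were called, with Col1a1, a collagen chain, at 0.57 (SE 0.42) and Fn1, fibronectin, at 0.60 (SE 0.53). In WT 4 of the 10 were negative, down to −2.39, and 6 positive. Col1a1 and Fn1 had the highest mean CPM of the list and weigh most in its sum. Lum and Dcn, chosen after their values were seen, varied between WT lines. In lines 3, 4 and 5 Lum was at 0.0483, 93.5 and 11.3 CPM, against 164.6 to 192.4 in WT primary cells. Dcn was at 0.661, 153.1 and 455.1 CPM in these lines, against 123.6 to 132.3. The part of the macrophage, endothelial, epithelial and fibroblast markers in the members' values was not tested.

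**Figure D3:**
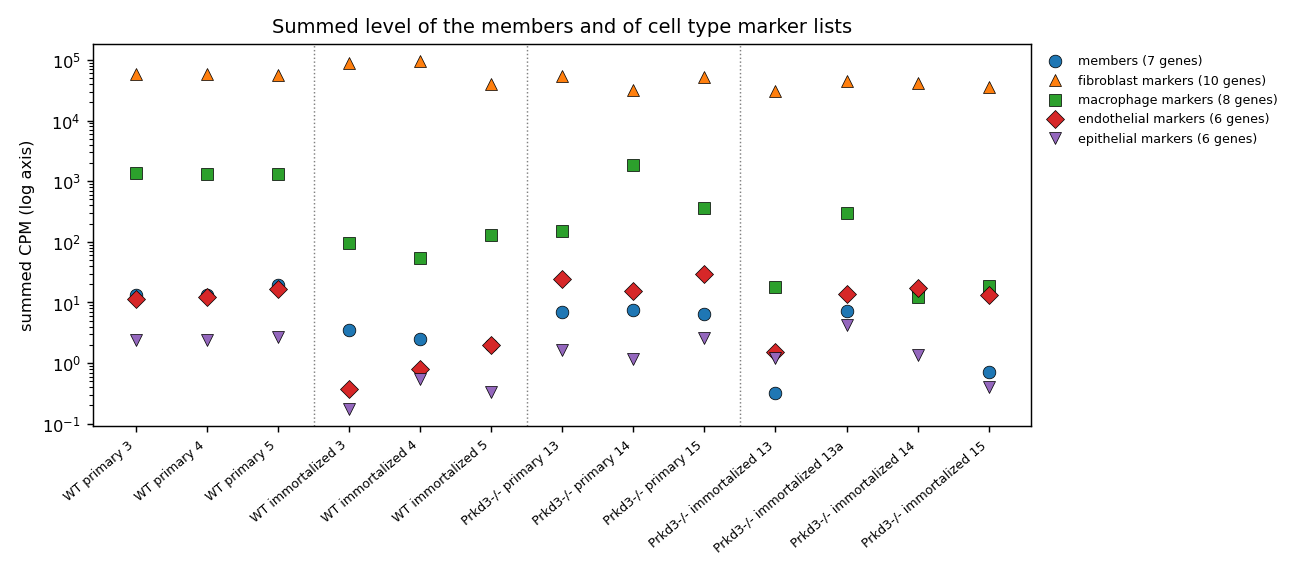
Summed CPM (log axis) of the 7 members and of 4 marker lists in each library, with dotted lines between groups. The macrophage sum is 1839 CPM in Prkd3-/- primary 14 and 149 in primary 13, while the fibroblast sum stays above 30899 CPM throughout.

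Of the wider gene lists, 9 genes were called lower in WT and 0 in Prkd3-/-, beside 1.76% and 0.0% of all tested genes. All 9 were in the myelin, cadherin, macrophage and endothelial lists. With the embryo as a block none of the 9 was called. In WT, DESeq2 called 4 myelin genes, 1 other type II cadherin, 7 macrophage markers, 3 endothelial markers and 2 epithelial markers lower. It called 3.67% of 33613 genes lower in WT, the share to set beside these and later list counts. In Prkd3-/- the list medians lay between −3.43 for macrophage markers and 0.60 for melanocyte genes, beside 0.07 for all genes. In the myelin list 10 of 12 genes were tested and 1 was called, Gldn, gliomedin of the nodes of Ranvier. It averaged 2.84 ± 0.189 CPM in WT primary cells and 0.0271 ± 0.0334 CPM in lines (log2 fold change −6.63, SE 0.75, edgeR adjusted p = 0.00807). Pmp22, a myelin protein also made by fibroblasts, was at 0.17 (SE 0.51). Among 11 other type II cadherins, 6 of them tested, Cdh8 was called, at 0.797 to 1.11 CPM in WT primary cells and 0 in the 3 lines. Cdh11, the cadherin of mesenchyme, was not (log2 fold change 0.31, SE 0.36). The 14 Schwann precursor genes had 9 tested and a median log2 fold change of −0.09 in WT, near the 0.04 of all genes, with Ncam1, a neural adhesion molecule, at 0.61 (SE 0.55) and Gap43, a growth cone protein, at 0.84 (SE 1.02). Of those 9 genes 6 were negative, down to −5.05, and DESeq2 called 3 lower, Dhh, Ednrb and L1cam, also named after their values were seen. The 15 crest transcription factors had a median of −0.61 over 13 tested in WT. Of those 13 genes 7 were negative, down to −11.76, and 6 positive. In 6 of the 15 every WT line lay below every primary culture, against 17.4% of all tested genes. DESeq2 called 3 lower, Tfap2b, Msx1 and Zic1, also named after their values were seen. Msx1 was at −5.16 (SE 0.76) and Zic1 at −6.19 (SE 0.94) in edgeR in WT. In Prkd3-/- Zic1 went both ways, at 26.3 and 53.2 CPM in lines 13a and 14 and 0 in lines 13 and 15. Its primary cultures there were at 2.35 to 12.2 CPM. Tfap2b was at 0 CPM in every WT line, so its fitted size depends on the prior count. Twist1, a factor of crest and mesenchyme, reached an edgeR adjusted p of 0.00656 with a log2 fold change of −0.94, under the size required. Snai1 was at 0.03 (SE 0.14).

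In the ErbB network, where 0 of 9 genes was called, Egfr was at 0.63 (SE 0.16) and Erbin at 0.06 (SE 0.10) in WT. Of the 7 tested, 4 were negative, down to −4.03, and 3 positive, and DESeq2 called 1 lower. In the neurotrophin network, with 0 of 13 called, Sorcs2, a co-receptor of Ngfr, was at 0.68 (SE 0.12, edgeR adjusted p = 0.0352) and Maged1 at 0.00 (SE 0.11). Of the 12 tested, 4 were negative and 8 positive, and DESeq2 called 2 lower. Ntrk2, named after its values were seen, was at 3.91 to 5.11 CPM in WT primary cells and 0 to 0.169 CPM in the WT lines. In Prkd3-/- it was at 2.52 to 7.74 CPM in primary cells. Line 14 there was at 65.4 CPM and lines 13, 13a and 15 at 0.382 to 0.836. The other S100 genes, 8 of 14 tested and 0 called, had a median of −0.26, with S100a6 at −0.22 (SE 0.27) and S100a4 at −0.36 (SE 0.44). Of 9 melanocyte genes 2 were tested and 0 called: Mitf, the master factor of melanocytes, at −0.69 (SE 0.25) and Pmel at 0.45 (SE 0.33). For peripheral neuron genes, 0 of 15 called, 6 of 8 tested were negative with a median of −1.39. Of the pair with the highest mean CPM in that list, both positive, Tubb3, a neuronal tubulin, was at 1.08 (SE 0.26) and Stmn2 at 1.54 (SE 1.27). DESeq2 called 4 neuron genes lower, Gata3, Isl1, Elavl4 and Prph, and 1 higher, Tubb3, names given after their values were seen.

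The genes most like each member over the 13 libraries, by Pearson r of log2 CPM among 21196 genes, are a description only, since all points share their libraries. They were Lrrn4 (0.94), Acss1 and Nlrp1a for Sox10, Gm16731 (0.95), Hpgd and Dennd1c for Erbb3, and Lyl1 (0.94), Zfp41 and Slc26a7 for S100b. For Cdh19 they were Bche (0.90), Rap2b and Wdr91, for Ngfr Col6a5 (0.97), Prr15 and Vstm4, and for Cdh6 Abca1 (0.97), Wnt2 and Myl12b. Among the members Sox10 and Foxd3 were most alike (0.92).

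For Cdh6, Ngfr and S100b, the medians of genes nearby on the chromosome spanned a narrower range over the lines than the gene itself. A median over many well-counted genes varies less than a single gene with few counts, so this is a description only. The lowest values of Cdh6 and Ngfr come from lines with 0 counts and depend on the prior count. Within 5 Mb of Cdh6, 27 well-counted genes had a median log2 ratio to the primary cells, relative to all genes, of −0.03 to 0.39 across the 7 lines, while Cdh6 itself lay between −8.30 and 0.52. Around Ngfr, 110 genes had medians of −0.16 to 0.09, with Ngfr between −6.12 and 0.52. Around S100b, 143 genes had medians of 0.02 to 0.45, with S100b between −5.56 and 5.61. The highest neighbour median for S100b, 0.45, was in WT line 4, whose chromosome 10 had a median of 0.46.

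**Figure D4:**
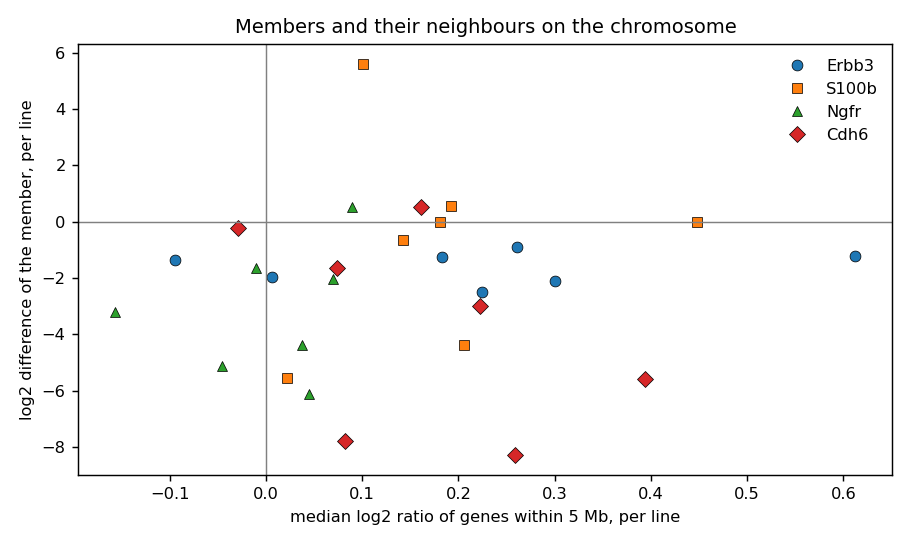
Each point is 1 line: the median log2 ratio of genes within 5 Mb (x) against the log2 difference of the member itself from its primary cells (y), for 4 members. S100b in Prkd3-/- line 14 is at 5.61 while its neighbours are at 0.10.

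Upstream sequence, matched in RefSeq (GRCm38.p6) for 4 of the 7 members, is shown for 3 whose lines ranged from near 0 to the primary level or above in at least 1 genotype. The 200 bases from 250 to 51 before the start run 5′ to 3′, with matches to the GC box GGGCGG of Sp1 in capitals.
S100b (chr10:76253586-76253785, + strand): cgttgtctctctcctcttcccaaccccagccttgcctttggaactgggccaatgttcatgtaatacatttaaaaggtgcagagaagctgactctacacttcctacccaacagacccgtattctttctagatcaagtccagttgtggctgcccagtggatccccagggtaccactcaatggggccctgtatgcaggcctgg
Ngfr (chr11:95587749-95587948, − strand): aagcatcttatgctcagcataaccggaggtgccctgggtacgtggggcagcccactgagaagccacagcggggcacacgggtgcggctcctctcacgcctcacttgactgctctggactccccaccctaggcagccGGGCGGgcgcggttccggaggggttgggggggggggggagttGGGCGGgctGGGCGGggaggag
Cdh6 (chr15:13173726-13173925, − strand): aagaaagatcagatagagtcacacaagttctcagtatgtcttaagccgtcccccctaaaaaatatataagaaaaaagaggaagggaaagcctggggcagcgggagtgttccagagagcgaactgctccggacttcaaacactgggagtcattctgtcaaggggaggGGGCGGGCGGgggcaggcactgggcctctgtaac
Both strands were also searched for the SOX cores AACAAT and ACAAAG, and no window of these 3 genes or of Foxd3 held either, while 7.96% and 13.6% of 32851 windows did. GGGCGG was in 24.6% of all windows, with 3 matches upstream of Ngfr and 2 overlapping ones upstream of Cdh6. CG dinucleotides numbered 2 for S100b, 13 for Ngfr and 6 for Cdh6, against a median of 4.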

How the data were processed

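The deposited files were 2 tables of raw counts per gene, 1 per genotype. Per the labels, the authors processed reads with STAR 2.7.10a, SAMtools 1.18 and featureCounts of Subread 2.0.6 (mm10, GRCm38). The WT file header shows pairs counted on Ensembl genes without strand and given to every overlapping gene. The Prkd3-/- table does not state its options. No column of values was left unused.

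Immortalized and primary libraries were compared within each genotype by edgeR 4.0.16 (quasi-likelihood, TMM, filter on low counts, robust) in R 4.3.3, and between genotypes by an interaction over 13 libraries. SE is the log2 fold change divided by the root of F. DESeq2 1.42.0 was an alternative, with other scalings, filters, thresholds, a joint fit, lines 13 and 13a summed, the embryo as a block and each library left out. Correlations used log2 CPM with a prior count of 1. Members and lists were chosen with earlier results of these data known. All 7 members are named, and of each other list the called genes (at most 4), filled to 2 by mean CPM. Some marker values are not reported here.

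On simulated counts 200 genes were changed by a log2 fold of 2, at a dispersion of 0.01. Only genes with more counts than most members have were changed, and the real lines varied by 18.2% to 47.9% beyond counting. The simulation therefore does not show the power for the members. Of the 200, edgeR recovered 200 in all 3 designs, with 6 false calls among 20775 genes in the interaction design. DESeq2 recovered 200 too, but made 25 false calls there among 35495 genes, 11.1% of its calls. That exceeded the limit of 20 first set for both tools, and the limit was then kept for edgeR alone.

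Pairing follows from embryo numbers in WT, per the paper, and rests on clone numbers alone in Prkd3-/-. Correlations of deviations within pairs were −0.26 (Prkd3-/- 13 with 13a) to 0.06.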

Additional observations from a re-analysis of the deposited data

Results flagged for a closer look

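Within the 4 Prkd3-/- lines, 3 of 19 values tested had 1 line far from the rest by Dixon's gap test. Chance flags about 1 in 20 where values are normally distributed, which these CPM need not be. The 19 tests also share the same 4 lines, so they are not independent. S100b was at 11.4 CPM in line 14. The summed macrophage markers were at 304.9 CPM in line 13a, against 12.5 to 19.0 in the others. The summed melanocyte genes were at 17.0 CPM in line 13a, against 7.48 to 8.43. Mitf alone held 13.9 of these 17.0 CPM, within its range of 11.1 to 16.1 in primary cultures of both genotypes. Dct and Tyrp1 were at 0 CPM in line 13a. The cause was not tested.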

How the results depend on the processing

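The members called were 0 in every comparison under all alternatives but DESeq2 in WT, which called 2. Where a main fit existed, the members' log2 fold changes kept direction and call in 243 of 246 refits. Sox10, Foxd3 and Cdh19 did not pass the filter within either genotype and are not counted there. The DESeq2 call of Cdh19 in WT is therefore not among the exceptions. Size was not compared: S100b in WT ranged from −5.12 to −0.98 with each library left out. Without Prkd3-/- immortalized 14, S100b in Prkd3-/- turned to −0.41 and the Ngfr difference between genotypes to −0.13. DESeq2 called Ngfr in WT. With the replicate block the counts called in WT were 0 genes and 0 list genes, in place of 349 and 9, and the joint fit of 13 libraries also gave 0 and 0. DESeq2 gave 1233 and 31, an adjusted p under 0.05 gave 825 and 20, and at least 10 counts in every library gave 153 genes. With each library left out, genes called lower in WT ranged from 48 (without primary 3) to 705 (without immortalized 5), with 50 without primary 4 and 66 without primary 5, and list genes from 2 (without any 1 primary) to 17 (without immortalized 5), with 15 without immortalized 3. The S100b change in Prkd3-/- ranged from −0.41 to 4.55 and the Ngfr difference between genotypes from −0.13 to 3.91. In Prkd3-/-, DESeq2 called 163 genes lower and 4 list genes, and the joint fit 1 gene. For the difference between genotypes DESeq2 called 38 genes, to be read with its 25 false calls in simulation, and edgeR 2 without Prkd3-/- immortalized 14, so the range there was 0 to 2. The block changed no call of a member. Library size alone moved none of the 28 group means of CPM by more than 1 SD. The causes were not tested. Depth limits Sox10, Foxd3 and Cdh19, which held few counts in most libraries.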
